A study of Mus musculus with 16 samples.

Results

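The 43 genes described here encode the machinery that shortens, decaps and degrades messenger RNA. They were chosen by name and function, though with earlier results of these data known. They were found among the 55414 genes of each count file by matching Ensembl identifiers to symbols. All 43 were found, and all 43 passed the filter on low counts that left 25081 genes for testing. They fall into 13 genes of CCR4-NOT and the other deadenylases, 15 of decapping, the 5′-to-3′ exonucleases and the LSM ring, 10 of the RNA exosome and 5 of nonsense-mediated decay.

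Sequencing of polyadenylated RNA followed mouse blood-forming cells after actinomycin D, a drug that stops RNA synthesis, was added. The 16 libraries form 8 groups of 2, with 2 genotypes (wild type, and deficient in Nat10, the enzyme that acetylates cytidine in RNA) each taken at 0, 1, 3 and 5 h. In every group, lineage-depleted bone marrow had been cultured with 10 ng/mL SCF and treated with 5 µM actinomycin D before stem cells were sorted, and ERCC spike-in RNA was added in equal amounts to the RNA samples. The labels give the genotype as Nat10-/- in the titles and as a deficiency in the sample traits, with no allele, Cre line, age or sex. The titles also name 32D, a myeloid cell line, where the traits name LT-HSCs (long-term haematopoietic stem cells) of bone marrow, and nothing in the labels says which name holds.

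Most messenger RNAs are taken apart in a fixed order. Deadenylases first trim the poly(A) tail, after which the RNA is either decapped by Dcp2 and digested from its 5′ end by Xrn1, or digested from its 3′ end by the exosome. Nonsense-mediated decay is a surveillance route that sends RNAs with a premature stop codon into these same pathways.

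Nat10 itself was not lower in the libraries labelled Nat10-deficient, apart from 1 h. At 0 h it measured 71.7 and 70.9 TMM-scaled CPM (gene counts brought to a common library total with edgeR's TMM factors) in the wild-type libraries and 88.2 and 91.1 in those labelled Nat10-deficient, and the difference was −0.12 on the log2 scale at 1 h, 1.21 at 3 h and 1.96 at 5 h. The labels do not say which part of the gene was deleted, and counts are summed over all annotated exons, so the labels are used below as labels. Total counts ran from 9142413 to 17274128 per library, and ERCC spike-ins took 1.79 to 2.92% of the counts in wild-type libraries against 0.0221 to 0.129% in the others. Immunoglobulin transcripts took 3.91 to 66.7% of the gene counts of wild-type libraries, with the lowest share at 0 h and the highest at 5 h, and those labelled Nat10-deficient held 4.31 to 27.5%. Of the 12 stem cell markers, Hoxb5 was at 0 counts in 1 library and the rest were detected in all, and their summed level fell from 2894 and 2939 CPM in wild-type libraries at 0 h to 496 and 501 at 5 h, and from 1136 and 1135 to 342 and 347 in the libraries labelled Nat10-deficient. Markers of other blood cells moved too. The summed erythroid markers (8 genes) measured 4512 and 4483 CPM against 4832 and 4844 at 0 h, but 1669 and 1658 against 14812 and 14715 at 5 h. Neutrophil and monocyte markers (9 genes) measured 4032 to 7057 CPM in wild-type libraries and 10925 to 20088 in those labelled Nat10-deficient, and eosinophil markers (5 genes) 255 to 2068 and 1360 to 5866. Mast cell and basophil markers (7 genes) measured 575 and 589 against 4340 and 4353 at 3 h. Each time is a separate sort, so the mix of cells moved along with time and genotype, its part in the results below was not tested, and fewer cells of a type and less RNA per cell cannot be told apart. Both files of every group name the same alignment file in their headers although the labels speak of biological replicates, so the p-values below measure the spread between 2 files that may be technical.

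Before transcription was blocked, the 43 genes spanned from 1.03 to 82.8 TMM-scaled CPM per kilobase of exon in the wild-type libraries, with a median of 6.46 against 3.62 over the 13709 genes above 1 CPM. The order was nearly the same in both genotypes (Spearman's rho 0.97 over the 43 genes, which share library and gene length). Among the deadenylases the highest was Cnot8, a catalytic subunit, at 37.1 ± 1.57 (SD, n = 2), followed by Cnot2, a subunit of the NOT module, at 15.5 ± 0.0354. The lowest were Cnot11, which joins Cnot10 on the scaffold, at 1.03 ± 0.0844 and Cnot3, a further NOT module subunit, at 2.38 ± 0.0103. The scaffold Cnot1, on which the complex is built, measured 5.74 ± 0.104.

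The catalytic pairs were unequal in level per kilobase. Cnot8 stood above its paralogue Cnot7, which measured 5.76 ± 0.342, and Cnot6l at 4.61 ± 0.280 stood above Cnot6 at 2.81 ± 0.136. Dcp1a, an activator of decapping, measured 6.46 ± 0.168 and its paralogue Dcp1b 2.24 ± 0.0510. Within each pair the files of one gene did not overlap those of the other.

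In the decapping module, Lsm4, shared by the cytoplasmic and nuclear LSM rings, was the highest of all members at 82.8 ± 0.853, and Xrn2, the nuclear 5′-to-3′ exonuclease, followed at 31.5 ± 0.208. The lowest were the decapping enzyme Dcp2 at 1.38 ± 0.0220 and the cytoplasmic exonuclease Xrn1 at 1.49 ± 0.0496. In the exosome, Exosc3, a cap subunit that binds RNA, measured 37.2 ± 0.114 and the nuclear nuclease Exosc10 31.0 ± 0.0272. The cap subunit Exosc1 at 2.96 ± 0.00946 and the catalytic subunit Dis3 at 4.19 ± 0.0418 were the lowest there. In nonsense-mediated decay, Smg5, an adaptor that binds phosphorylated Upf1, measured 8.86 ± 0.167 and the endonuclease Smg6 8.05 ± 0.0641, above the helicase Upf1 at 1.75 ± 0.0759 and its kinase Smg1 at 1.86 ± 0.0505. The kilobase length is the union of all annotated exons, so isoforms that are not used lower a value.

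**Figure D1:**
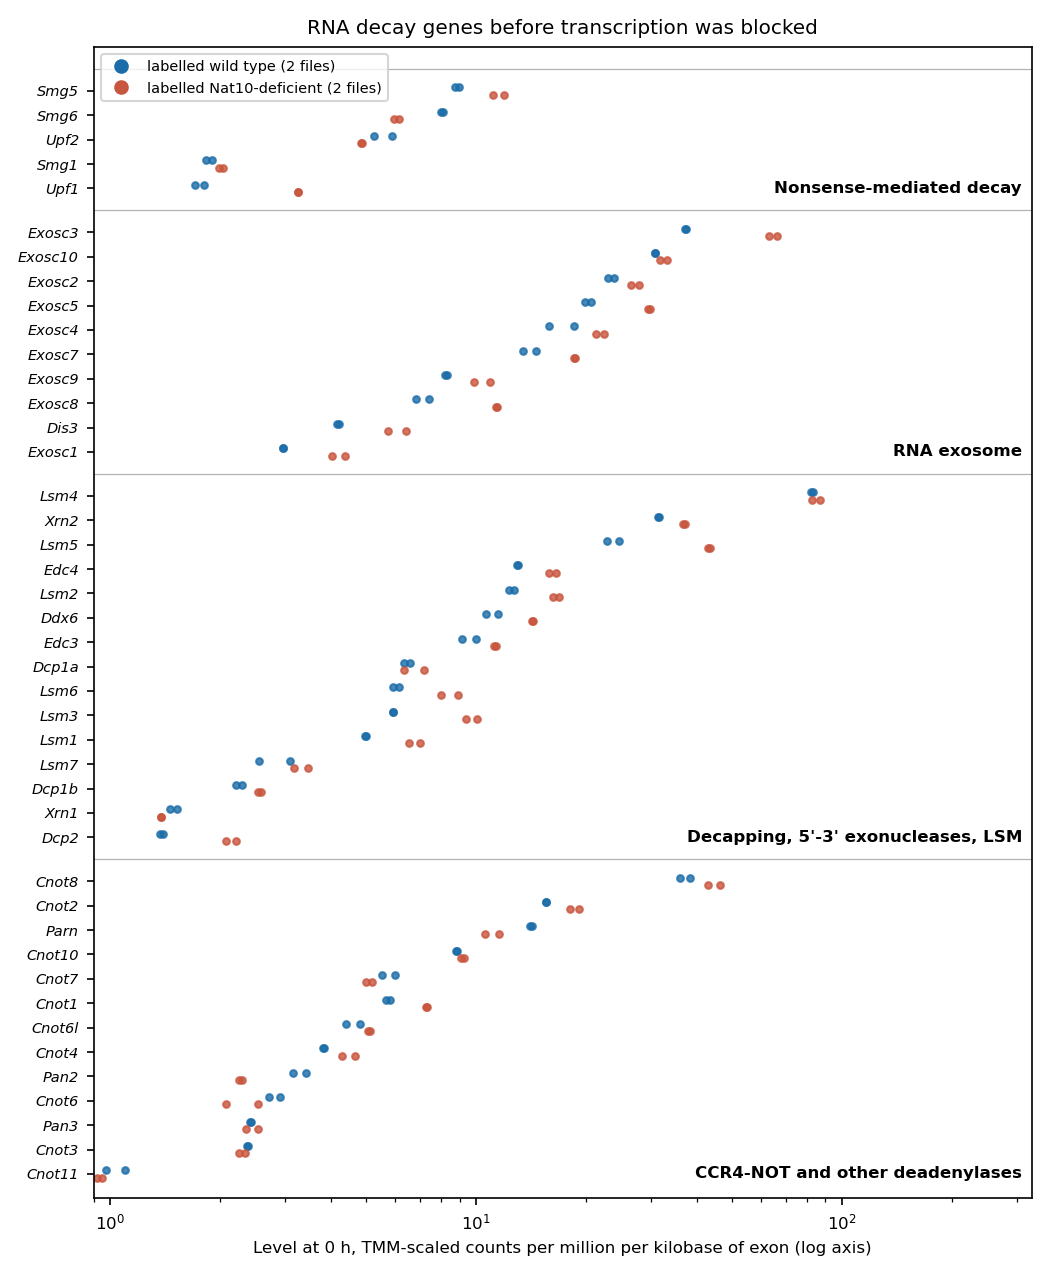
Level of each of the 43 genes at 0 h (x axis, TMM-scaled CPM per kilobase of exon, log axis), 1 point per file, by module and ordered by the wild-type mean. Lsm4 stands highest at 82.8 and Cnot11 lowest at 1.03 in the wild-type libraries, and the points of the libraries labelled Nat10-deficient lie to the right in 9 exosome genes that passed the test.

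The genotypes were then compared at each time, on TMM-scaled counts and therefore relative to the other genes of a library. At 0 h, 26 of the 43 genes were higher and 6 lower in the libraries labelled Nat10-deficient (edgeR's quasi-likelihood test with Benjamini-Hochberg adjustment over all genes, adjusted p below 0.05), where 36.0% of all genes tested were higher and 24.2% lower. Their median difference was 0.24 on the log2 scale, against 0.10 over all genes. The 1 h libraries gave 32 higher and 7 lower members (32.4% and 31.8% of all genes), with a median of 0.51 against 0.00. After 3 h the count was 27 and 8 (30.4% and 37.0% of all genes), with a median of 0.48 against −0.07. After 5 h it was 30 and 5 (34.2% and 30.1%), with a median of 0.61 against 0.10. Averaged over the 4 times, 32 members were higher and 7 lower (31.6% and 21.6%), with a median of 0.46 against 0.11. The members are well-expressed genes, which pass a test more often. Among the 10825 genes at or above the mean level of the lowest member, the shares that were higher were 46.7, 46.1, 50.3 and 48.4% in time order and 52.9% for the mean, and the shares that were lower were 27.7, 31.9, 26.3, 34.2 and 31.1%.

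The direction of these counts depended on the scaling at 0 h, 3 h and for the mean. When libraries were scaled on 32 long-lived mRNAs instead, the median shift over all genes was −0.33, −0.52, −0.78 and −0.40 in time order and −0.51 for the mean. Here and below, counts on that scaling have no share of all genes beside them, so they do not set the members apart from other genes. With that scaling the 0 h libraries gave 8 higher and 17 lower members, the 3 h libraries 7 and 24, and the mean 12 and 20. The 1 h libraries gave 17 and 16, and the 5 h libraries 22 and 12, where the balance kept its direction. The calls also rest on treating the files of a group as replicates. With both files summed, a different model was fitted, so its counts do not isolate that step. Its 0 h difference is the gap between straight lines fitted over the 4 times, read at 0 h, with departures from the lines as error. For the averaged times, the change of the genotype difference with time served as error. This edgeR fit called 0 of 43 at 0 h, with 4 at an unadjusted p below 0.05, and 0 for the averaged times, with 16 at an unadjusted p below 0.05. Of all genes, that fit called 0% at 0 h and 0.0678% over the mean.

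**Figure D2:**
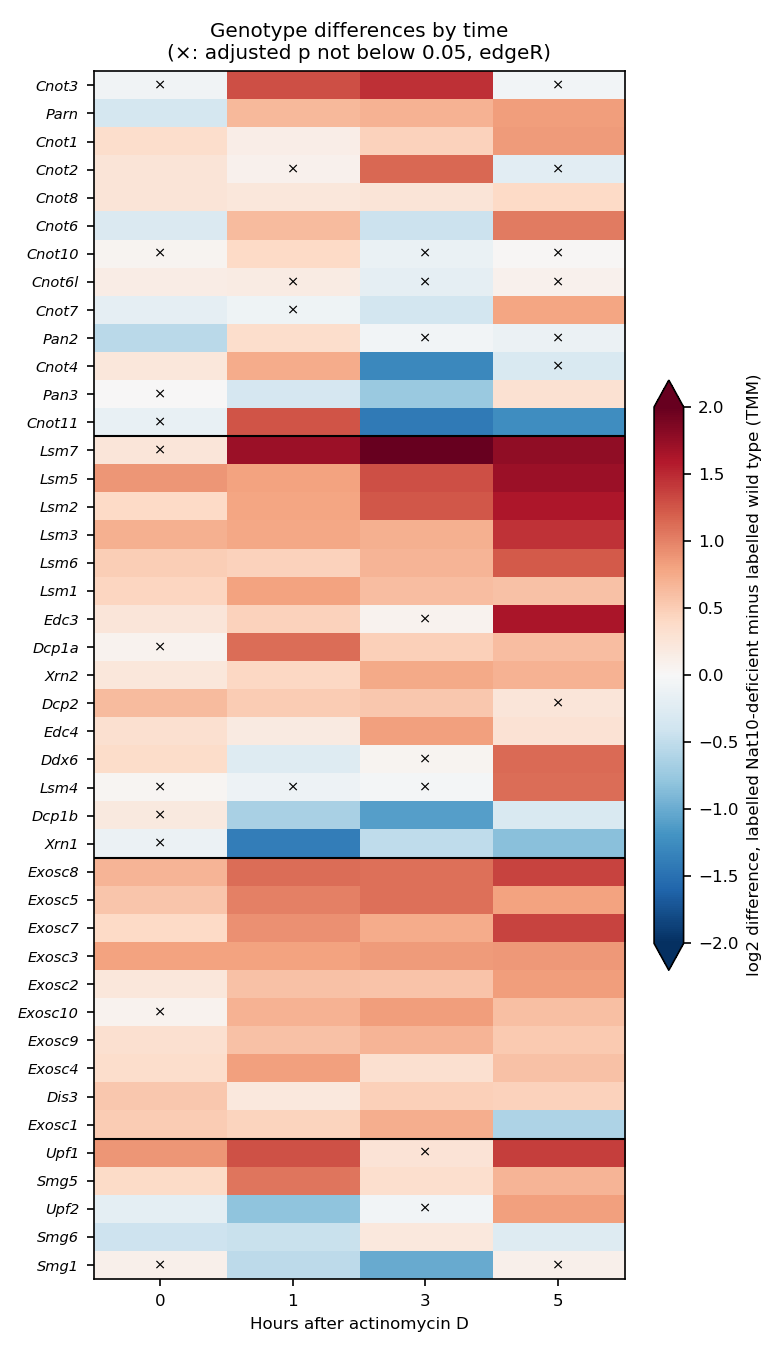
Difference between genotypes (colour, log2 of TMM-scaled counts, libraries labelled Nat10-deficient minus wild type) for each gene (rows, by module) at each time (columns, hours). A cross marks an adjusted p of 0.05 or more in edgeR. Exosome and LSM genes are red in most cells on this scaling, while 8 exosome genes are not called higher at 3 h when libraries are scaled on long-lived mRNAs.

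The RNA exosome was the module with the most uniform difference between genotypes. Its ring subunits Exosc4, Exosc5, Exosc7, Exosc8 and Exosc9, its cap subunits Exosc1, Exosc2 and Exosc3 and the nucleases Dis3 and Exosc10 were called higher in the libraries labelled Nat10-deficient in 9, 10, 10 and 9 of 10 cases in time order with TMM scaling, whereas with scaling on long-lived mRNAs 4, 6, 2 and 6 were higher and 2, 1, 3 and 1 lower. The gene that did not pass at 0 h was Exosc10, at 0.07 on the log2 scale, and the gene that was lower at 5 h was Exosc1. The median difference over the 10 genes was 0.45 at 0 h and 0.55 over the mean of the times.

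Exosc3 measured 49.4 and 49.2 TMM-scaled CPM in the wild-type libraries at 0 h and 88.0 and 83.4 in those labelled Nat10-deficient. It was lower at 3 h in both genotypes (25.8 and 27.0 against 46.2 and 49.3) and measured 34.2 and 32.6 against 65.0 and 57.1 at 5 h. The genotypes did not overlap at any of these times, and the log2 difference was 0.80 ± 0.0561 (SE) at 0 h with an adjusted p of 4.79e-32 in edgeR.

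Exosc8, a ring subunit, measured 29.6 and 32.1 in the wild-type libraries at 0 h, followed by 28.4 and 29.7, 28.1 and 21.0, and 32.0 and 37.0 at the later times. The libraries labelled Nat10-deficient gave 49.2 and 49.5, 60.8 and 65.0, 54.0 and 51.5, and 87.7 and 87.9. Every library of the latter lay above every wild-type library, and the difference over the mean of the times was 1.06 ± 0.0399 (edgeR, adjusted p = 1.75e-71).

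Exosc5, a further ring subunit and the exosome gene with the most counts, went from 129 and 124 in wild-type libraries at 0 h to 168 and 188 at 5 h, and from 187 and 185 to 312 and 309 in those labelled Nat10-deficient. Every library of the latter lay above every wild-type library of the same time, with a difference over the mean of 0.87 ± 0.0206 (edgeR, adjusted p = 9.26e-110). Exosc7, also of the ring, moved apart with time: 87.8 and 80.6 against 111 and 112 at 0 h, and 47.5 and 52.7 against 127 and 129 at 5 h, where the log2 difference was 1.36 ± 0.0684 (edgeR, adjusted p = 7.39e-51). With scaling on long-lived mRNAs the differences over the mean were smaller, at 0.55 for Exosc8, 0.36 for Exosc5, 0.34 for Exosc7 and 0.32 for Exosc3.

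Exosc1 was the exception. It measured 12.0 and 12.0 in wild-type libraries against 16.4 and 17.7 at 0 h, and 6.46 and 7.81 against 12.5 and 11.1 at 3 h. At 5 h the order was turned round, with 16.2 and 15.3 in wild-type libraries and 9.90 and 10.7 in those labelled Nat10-deficient, a log2 difference of −0.61 on TMM-scaled counts. The remaining exosome genes differed over the mean of the times by 0.42 (Dis3) to 0.55 (Exosc2 and Exosc10).

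**Figure D3:**
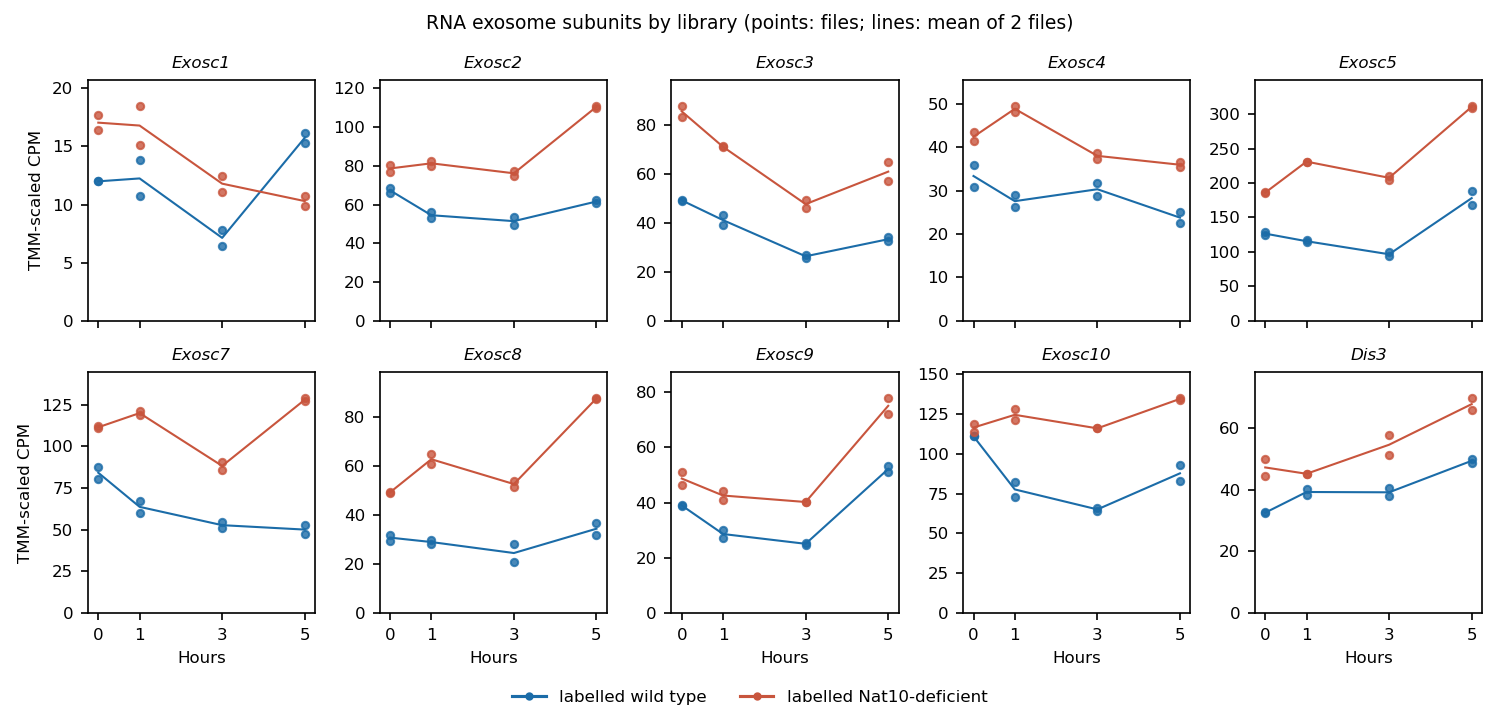
TMM-scaled CPM (y axis, from 0) of the 10 exosome genes against hours of actinomycin D (x axis), 1 point per file and lines through the mean of 2 files. The libraries labelled Nat10-deficient lie above the wild type in every panel at 1 and 3 h on this scaling, and Exosc1 crosses at 5 h (16.2 and 15.3 against 9.90 and 10.7).

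The exosome promoters are shown because 10 of 10 of these genes were called higher at 1 and 3 h with TMM, which on long-lived mRNAs became 6 and 2. RefSeq promoters of build GRCm38.p6 were matched for 35 of the 43 genes, 8 of them exosome genes. The GC box, read as GGGCGG on either strand in the 250 bases before a start site, was found in 25 of 35 members (71.4%) and in 6 of the 8 exosome genes, against 35.4% of all 27025 genes with a promoter and 45.8% of protein-coding genes. TATAAA, the core of the TATA box, was found in 0 of 35 members, in 14.3% of all genes and in 13.7% of protein-coding genes. CCGGAAG, an ETS-type site, was found in 8 of 35 members (22.9%), against 7.83% of all genes and 10.2% of protein-coding genes. The CCAAT box was in 31.4% of members, 37.5% of all genes and 39.5% of protein-coding genes. These are matches of letters, with nothing measured on binding. The 120 bases before the start are given 5′ to 3′ on the coding strand, with GGGCGG or its reverse complement CCGCCC in capitals. Exosc3 (chr4:45320617-45320736, minus strand), Exosc5 (chr7:25659033-25659152, plus), Exosc7 (chr9:123113111-123113230, plus) and Dis3 (chr14:99099771-99099890, minus) hold it within this distance. Exosc1, Exosc2 (chr2:31670595-31670714, plus), Exosc8 and Exosc10 do not, and of these only the bases of Exosc2 are given.
Exosc3: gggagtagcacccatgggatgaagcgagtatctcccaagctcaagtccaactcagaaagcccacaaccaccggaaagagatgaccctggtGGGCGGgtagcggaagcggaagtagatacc
Exosc5: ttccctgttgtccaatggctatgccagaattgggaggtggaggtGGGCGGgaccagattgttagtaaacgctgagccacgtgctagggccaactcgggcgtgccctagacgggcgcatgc
Exosc7: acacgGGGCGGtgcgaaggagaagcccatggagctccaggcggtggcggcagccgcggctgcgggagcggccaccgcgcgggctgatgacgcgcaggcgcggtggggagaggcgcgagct
Dis3: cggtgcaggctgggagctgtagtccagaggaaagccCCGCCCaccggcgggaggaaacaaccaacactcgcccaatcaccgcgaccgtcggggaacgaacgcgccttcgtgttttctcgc
Exosc2: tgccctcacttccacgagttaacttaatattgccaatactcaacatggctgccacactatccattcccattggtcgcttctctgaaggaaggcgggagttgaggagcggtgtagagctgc

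In the decapping and LSM module, the 0 h libraries had 10 of 15 genes higher and 0 lower in edgeR (the other 5 did not pass), and 13 were higher and 2 lower over the mean of the times, but on long-lived mRNAs the counts became 3 and 4 at 0 h and 5 and 5 for the mean. The LSM ring binds shortened tails and recruits the decapping enzyme. Its member Lsm5 measured 19.4 and 18.0 TMM-scaled CPM in wild-type libraries at 0 h and 19.9 and 15.3 at 5 h. In those labelled Nat10-deficient it measured 34.1 and 34.5 at 0 h and 57.5 and 59.3 at 5 h, above every wild-type library, and the difference was 0.87 ± 0.0835 at 0 h and 1.17 ± 0.0493 over the mean (edgeR, adjusted p = 3.58e-20 and 6.73e-63). Lsm2 measured 38.8 and 39.9 against 51.0 and 53.2 at 0 h, and 28.7 and 25.0 against 81.8 and 83.4 at 5 h, where its difference was 1.61.

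Lsm3 differed by 0.71 at 0 h and by 0.91 over the mean, Lsm6 by 0.49 and 0.72, and Lsm1, specific to the cytoplasmic ring, by 0.44 and 0.61. Lsm7 had the largest difference of all 43 genes over the mean, at 1.55 ± 0.179 (edgeR, adjusted p = 4.57e-15), but it rested on few counts: 2 to 16 per wild-type library from 1 h on, against 39 to 75 in the libraries labelled Nat10-deficient. Lsm4 measured 85.3 and 86.6 against 85.8 and 90.4 at 0 h and did not pass the test until 5 h, when it measured 69.6 and 67.3 against 153 and 145.

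The decapping enzyme and its activators moved less alike. Dcp2 measured 11.9 and 12.1 in wild-type libraries and 19.2 and 18.0 in those labelled Nat10-deficient at 0 h, a log2 difference of 0.63 ± 0.117 (edgeR, adjusted p = 7.66e-07). Edc4, a scaffold of the decapping complex, differed by 0.32 and the helicase Ddx6 by 0.37 at 0 h. Edc3, which joins Dcp2 to its partners, differed by 0.24 at 0 h and, after measuring 9.61 and 10.9 against 30.7 and 32.8, by 1.64 ± 0.137 at 5 h (edgeR, adjusted p = 5.94e-25). The 2 activators parted: Dcp1a differed by 0.57 ± 0.0559 and Dcp1b by −0.46 ± 0.0633 over the mean (edgeR, adjusted p = 1.35e-19 and 1.46e-11).

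Xrn1 and Xrn2, the exonucleases that follow decapping in the cytoplasm and act in the nucleus, also parted. Xrn1 measured 28.3 and 27.0 against 25.5 and 25.5 at 0 h, then 48.6 and 46.1 in wild-type libraries against 19.0 and 17.5 at 1 h. It was lower there at 1, 3 and 5 h with no overlap, by −0.71 ± 0.0487 over the mean (edgeR, adjusted p = 4.41e-34) and by −1.22 with scaling on long-lived mRNAs. Xrn2 measured 126 and 125 against 148 and 146 at 0 h and 119 and 109 against 187 and 183 at 5 h, and differed by 0.52 over the mean.

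CCR4-NOT and the other deadenylases had no common direction. At 0 h 5 of 13 were higher and 4 lower, with a median of 0.01, and the mean of the times gave 7 and 3, but on long-lived mRNAs the counts became 0 and 8 at 0 h and 1 and 10 for the mean. Cnot1 measured 99.8 and 97.3 TMM-scaled CPM in wild-type libraries and 125 and 126 in those labelled Nat10-deficient at 0 h, a difference of 0.35 ± 0.0451 (edgeR, adjusted p = 2.64e-12). The gap was 37.9 and 41.7 against 72.0 and 71.5 at 5 h. It was 0.01 at 0 h with scaling on long-lived mRNAs.

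Pan2 and Pan3 form the deadenylase that makes the first cuts in long tails. Pan2 measured 26.7 and 29.1 against 19.4 and 19.1 at 0 h, a difference of −0.53 ± 0.0869 (edgeR, adjusted p = 1.98e-08), and was then 0.34 higher at 1 h. Pan3 differed by 0.01 at 0 h and by −0.74 at 3 h. Parn, a poly(A) nuclease, measured 75.6 and 76.2 against 56.9 and 62.0 at 0 h but 50.9 and 47.9 against 89.0 and 88.0 at 5 h. Its difference went from −0.35 ± 0.0531 (edgeR, adjusted p = 1.38e-09) to 0.84.

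Several CCR4-NOT genes changed sign between times on TMM-scaled counts. Cnot4, an E3 ubiquitin ligase, measured 19.3 and 20.8 in wild-type libraries against 34.7 and 32.0 at 1 h, and 37.1 and 37.3 against 17.8 and 12.8 at 3 h. These are log2 differences of 0.74 ± 0.0927 and −1.29 ± 0.113 (edgeR, adjusted p = 4.47e-13 and 4.59e-23). Cnot11 differed by 1.25 at 1 h, −1.41 at 3 h and −1.24 at 5 h on 17 to 82 counts per library. Cnot3 measured 9.67 and 9.08 against 22.4 and 23.7 at 1 h and 7.80 and 7.95 against 21.5 and 21.8 at 3 h, while at 0 h its difference was −0.06 and did not pass.

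Of the catalytic pairs, Cnot8 was higher at every time, by 0.23 to 0.40, with TMM, but measured −0.52 to 0.00 on long-lived mRNAs. Cnot7 differed by −0.18 ± 0.0793 at 0 h (edgeR, adjusted p = 0.0471), a call that was lost on leaving out any of 15 of the 16 libraries, wild-type replicate 1 at 0 h being the exception (adjusted p = 0.0576 to 0.510 in edgeR). At 5 h it differed by 0.79. Cnot6 differed by −0.29 at 0 h, a call lost without replicate 1 of the libraries labelled Nat10-deficient at 0 h (−0.14, adjusted p = 0.355 in edgeR) or without wild-type replicate 1 (−0.24, adjusted p = 0.123), and by 1.04 at 5 h, where it measured 19.4 and 18.6 against 36.8 and 41.4. Cnot6l stayed between −0.19 and 0.16 at every time. Cnot2 differed by 0.26 at 0 h and 1.15 at 3 h, and Cnot10, which pairs with Cnot11, by 0.40 at 1 h and by −0.13 to 0.05 at the other times.

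Nonsense-mediated decay was split, with 2 of 5 genes higher and 2 lower both at 0 h and for the mean of the times, and with 1 and 3, then 2 and 3, on long-lived mRNAs. Upf1, the helicase at the centre of the pathway, measured 4.68 and 5.58 TMM-scaled CPM in wild-type libraries and 11.9 and 12.8 in those labelled Nat10-deficient at 1 h, and 5.90 and 7.23 against 17.4 and 16.5 at 5 h. The difference was 0.89 ± 0.129 at 0 h and 0.96 ± 0.0864 over the mean (edgeR, adjusted p = 3.55e-10 and 2.32e-22). Smg5 was higher at every time with TMM, by 0.34 to 1.07, but not at 3 h on long-lived mRNAs (−0.44), and measured 38.2 and 40.3 against 83.9 and 80.5 at 1 h.

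The endonuclease Smg6 went the other way at 0 h, with 68.4 and 67.7 against 51.9 and 50.5, a difference of −0.41 ± 0.0613 (edgeR, adjusted p = 8.77e-10). Smg1 measured 43.8 and 45.5 against 48.6 and 47.6 at 0 h and did not pass, but 55.8 and 61.6 against 26.0 and 32.5 at 3 h with no overlap (edgeR, adjusted p = 3.49e-23). Upf2, the bridge between Upf1 and the exon junction complex, differed by −0.81 at 1 h, where wild-type libraries held 43.1 and 42.1 against 23.9 and 24.9, and by 0.82 at 5 h, where they held 15.3 and 17.1 against 28.0 and 29.1.

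The course after transcription was blocked was read on counts per ERCC spike-in count, so that a falling mRNA is not masked by others falling too. Each time is a separate sort, so the amount of RNA in a sample also enters this scale and the half-lives, and its part was not tested. All 43 genes fell in the wild-type libraries and all 43 fell in those labelled Nat10-deficient (edgeR, adjusted p below 0.05), where 57.4% and 71.3% of all genes tested fell and 11.1% and 3.19% rose. Among genes at or above the level of the lowest member, 93.3% and 99.6% fell and 4.30% and 0.176% rose, so a fall was near universal at these levels. The median slope of the members was −0.46 log2 per hour in wild-type libraries, which corresponds to a half-life of 2.18 h, against −0.36 over all genes, and −0.48 (2.08 h) in those labelled Nat10-deficient, against −0.48 over all genes. With scaling on long-lived mRNAs, which moved the slopes of all genes by a median of 0.25 and 0.33, 40 of 43 fell in each genotype. The members' medians were then −0.21 and −0.15, and the share of all genes that fell on that scaling is not given here.

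On the ERCC scale the fall was steepest in the first hour. In wild-type libraries the median member was at 42.9% of its 0 h level at 1 h, 33.3% at 3 h and 16.9% at 5 h, against 45.6, 32.5 and 16.2% over all genes above 1 CPM. In libraries labelled Nat10-deficient it was at 36.0, 21.5 and 16.4%, against 37.3, 23.7 and 12.4% over all genes. Relative to other genes by TMM, the median member was at 82.7, 76.4 and 78.8% in wild-type libraries, against 87.7, 74.5 and 75.2% over all genes. In those labelled Nat10-deficient the TMM values were 91.6, 79.2 and 108%, against 95.1, 87.3 and 81.1%. The immunoglobulin share rose over the same hours in the wild-type libraries, and without those genes the members took 0.312% of the gene counts at 0 h and 0.207 and 0.209% at 5 h.

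**Figure D4:**
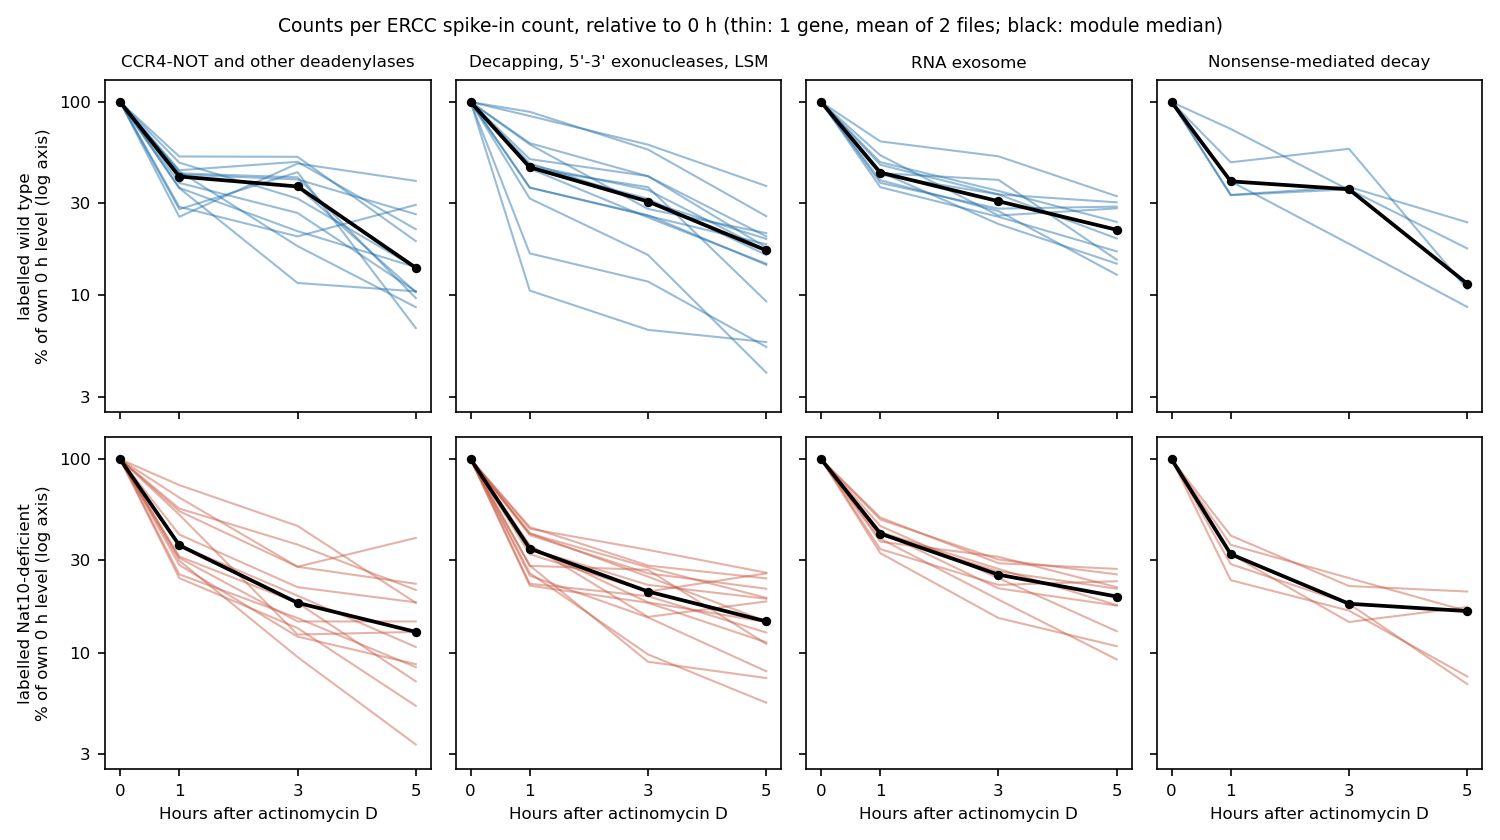
Percent of the 0 h level that was left (y axis, log axis, counts per ERCC count) against hours of actinomycin D (x axis), for wild-type libraries (upper row) and libraries labelled Nat10-deficient (lower row) by module. Thin lines are genes (mean of 2 files) and black lines module medians, and the exosome lines lie close together, between 12.8 and 32.6% at 5 h in the wild type.

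Among the decapping genes, Edc3 went from 4.49 and 4.24 counts per 1000 ERCC counts in wild-type libraries at 0 h through 1.41 and 1.36, then 0.732 and 0.679, to 0.161 and 0.187 at 5 h, which left 3.99%. Its slope was −0.86 ± 0.0215 log2 per hour, the steepest of the 43 in the wild type. In the libraries labelled Nat10-deficient it went from 357 and 370 to 25.4 and 28.3, which left 7.39%, with a slope of −0.72 ± 0.0138. Levels per ERCC count cannot be compared between genotypes in the same way, since every member lay far above the wild type on that scale. All 43 were called higher at each time, with log2 medians of 6.38, 6.25, 5.94 and 6.25 in time order. Over all genes the medians were 6.24, 5.64, 5.19 and 5.62, so a large gap held for genes at large.

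Dcp1a lost most of its level within the first hour, from 4.03 and 4.34 to 0.723 and 0.655 counts per 1000 ERCC counts in wild-type libraries, and was at 5.42% by 5 h. Its slope was −0.72 ± 0.0224 (edgeR, adjusted p = 3.76e-228), with −0.78 in the libraries labelled Nat10-deficient. Its paralogue Dcp1b still stood at 84.7% after 1 h and 36.8% after 5 h in wild-type libraries, with a slope of −0.29 ± 0.0244 (edgeR, adjusted p = 1.36e-31). In the libraries labelled Nat10-deficient it was at 36.0% after 1 h.

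In wild-type libraries the slopes of the CCR4-NOT genes ran from −0.68 ± 0.0137 for Cnot1 to −0.14 ± 0.0524 for Cnot11 (edgeR, adjusted p = 0.00973 for Cnot11), and in those labelled Nat10-deficient from −0.94 ± 0.0185 for Cnot4 to −0.29 ± 0.0181 for Cnot6. Cnot6 was left at 22.0% at 5 h in wild-type libraries and at 39.2% in the others, whereas its paralogue Cnot6l was left at 10.4 and 7.10%. Cnot7 was left at 10.5 and 14.5% and Cnot8 at 13.9 and 10.7%. Some courses were not a steady fall: Cnot4 in wild-type libraries was at 27.9% at 1 h, 43.4% at 3 h and 6.78% at 5 h.

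By the median, the exosome genes fell more slowly than the members at large, at −0.39 in wild-type libraries and −0.43 in those labelled Nat10-deficient. The medians were −0.46 and −0.48 over the members and −0.36 and −0.48 over all genes. Among genes at or above the level of the lowest member they were −0.46 and −0.52. Exosc5 was left at 30.3 and 25.4% at 5 h and Exosc9 at 28.8 and 23.4%. Exosc7 had the steepest exosome slope in wild-type libraries at −0.54 ± 0.0132 and Exosc1 in the others at −0.65 ± 0.0228. In nonsense-mediated decay, Smg6 fell by −0.66 ± 0.0174 and −0.69 ± 0.0149 log2 per hour and was left at 8.72 and 6.88%, while Smg5 was left at 23.9 and 20.7%.

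The slopes were then compared between genotypes by an interaction term. On the ERCC scale 8 of 43 genes had a less steep and 21 a steeper fall in the libraries labelled Nat10-deficient, where 15.7% and 32.1% of all genes did, with a median difference of −0.06 against −0.10. Among genes at or above the level of the lowest member the shares were 24.8% and 48.3%. Relative to other genes by TMM the balance was the reverse, with 20 less steep and 5 steeper, where 24.5% and 24.2% of all genes did, or 42.5% and 32.9% at or above that level. On long-lived mRNAs it was 18 and 6, and with the files of each group summed 0 of 43 were called on the ERCC scale, with 0 at an unadjusted p below 0.05, where 0.279% of all genes were called.

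The members with the largest slope difference kept its sign on the ERCC and TMM scales. Cnot11 went from 0.264 and 0.307 counts per 1000 ERCC counts to 0.0934 and 0.130 at 5 h in wild-type libraries, and from 18.3 and 18.1 to 1.76 and 2.89 in those labelled Nat10-deficient, so that 39.1 and 12.8% were left. The slope difference was −0.48 ± 0.0726 per hour (edgeR, adjusted p = 1.77e-10) and −0.39 with TMM. Cnot4 differed by −0.32 ± 0.0369 (edgeR, adjusted p = 1.17e-16) and −0.22 with TMM. Exosc1 was left at 28.2 and 9.22%, with a difference of −0.29 ± 0.0389 (edgeR, adjusted p = 1.31e-12) and −0.19 with TMM.

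Of the 8 genes called less steep, Upf2 had the largest slope difference. It went from 2.21 and 2.59 to 0.257 and 0.293 counts per 1000 ERCC counts in wild-type libraries and from 146 and 149 to 23.2 and 25.1 in the others. The slope difference was 0.16 ± 0.0298 (edgeR, adjusted p = 7.36e-07) and 0.25 with TMM. Lsm2 and Edc3 each differed by 0.14, Lsm4 by 0.12, and Parn by 0.10 on the ERCC scale. Dcp2 fell more steeply by −0.16 on the ERCC scale, a call lost without wild-type replicate 1 at 5 h (−0.09, adjusted p = 0.363 in edgeR).

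**Figure D5:**
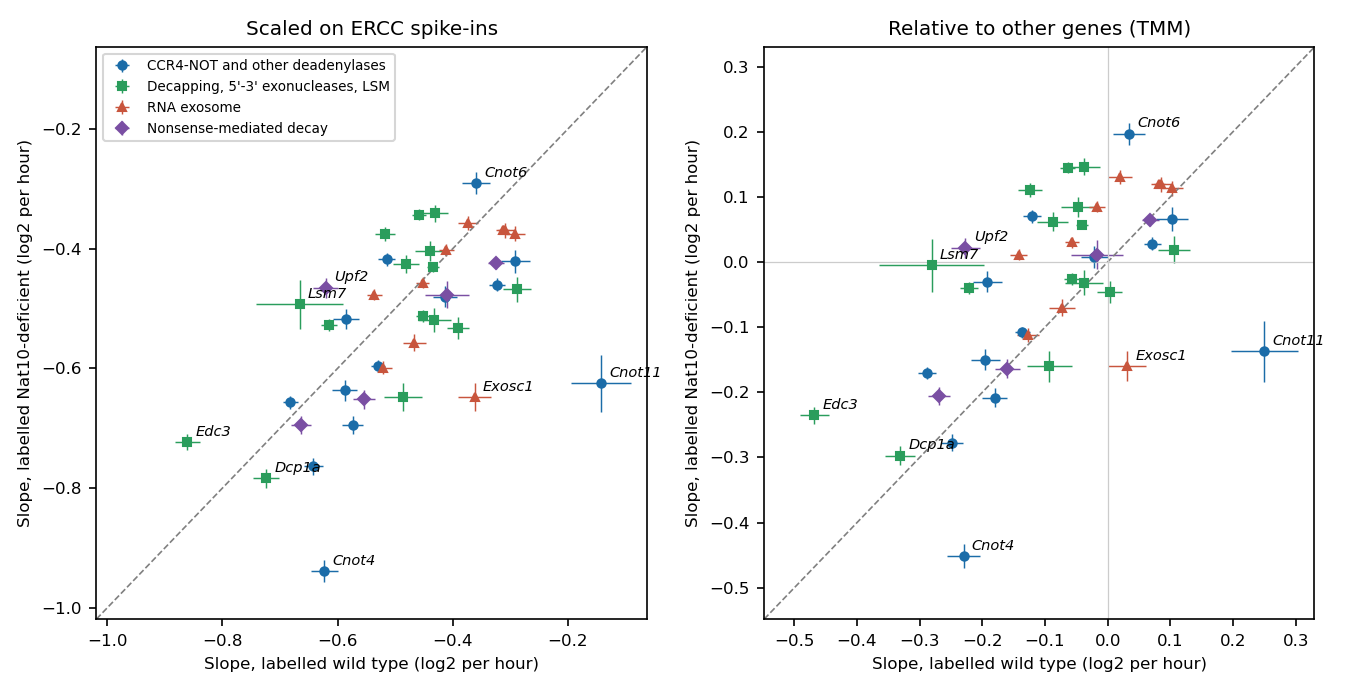
Slope in wild-type libraries (x axis) against slope in libraries labelled Nat10-deficient (y axis), log2 per hour, 1 point per gene with SE bars, on the ERCC scale (left) and relative to other genes by TMM (right). All 43 slopes are negative on the left, while 8 genes rise in the wild type and 17 in the others on the right, and Cnot11 (−0.14 and −0.62) lies farthest below the dashed line of equal slopes.

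Relative to other genes by TMM, with the files taken as replicates, 8 members rose and 25 fell with time in wild-type libraries, where 28.1% and 31.2% of all genes did, and 17 rose and 18 fell in those labelled Nat10-deficient, where 29.0% and 31.8% did. At or above the level of the lowest member, 29.5% of genes rose and 52.2% fell in wild-type libraries and 35.4% and 48.7% in the others. With the files of a group added together, edgeR called 1 of 43 TMM slopes in wild-type libraries and 0 in the others (8 and 6 at an unadjusted p below 0.05). Of all genes, that fit called 2.60% and 1.18%. The exosome genes Dis3, Exosc9 and Exosc5 were among those that rose, by 0.10, 0.09 and 0.08 per hour in wild-type libraries and by 0.11, 0.12 and 0.12 in the others, all of which fell on the ERCC scale and on long-lived mRNAs. Edc3 and Dcp1a fell also on this scale, by −0.47 and −0.33 in wild-type libraries and by −0.24 and −0.30 in the others. Over the 43 genes the slopes of both genotypes on the ERCC scale had a Spearman's rho of 0.61, with shared gene lengths and shared sequence content.

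Of 58 further genes of these pathways, 55 were matched and 54 tested. At 0 h the libraries labelled Nat10-deficient had 29 of them higher and 9 lower (53.7% and 16.7%, against 36.0% and 24.2% of all genes and 46.7% and 27.7% at or above the level of the lowest member), with a median of 0.29. Etf1, a translation termination factor, differed by 0.77 ± 0.0381 and Eif4a3, of the exon junction complex, by 0.54 ± 0.0348 (edgeR, adjusted p = 8.40e-52 and 1.27e-36). Pde12, a mitochondrial deadenylase, differed by −0.56 and Angel2 by −0.32. Averaged over the times, 34 were higher and 11 lower (63.0% and 20.4%, against 31.6% and 21.6% of all genes and 52.9% and 31.1% at that level). Rbm8a, of the exon junction complex, differed by 0.77 and the poly(A)-binding protein Pabpc1 by 0.71, while Nudt16, a decapping enzyme, differed by −0.80 and Eif4enif1, which binds the cap-binding protein, by −0.57. On the ERCC scale 53 of 54 fell in each genotype, as did 93.3% and 99.6% of genes at that level, and Dis3l, a cytoplasmic exosome nuclease, had a slope difference of −0.40 ± 0.0286 (edgeR, adjusted p = 1.38e-42).

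Features that the choice of genes did not use were also set beside these values. Exonic length ran from 792 bases (Lsm5) to 23984 (Smg1), and over the 43 genes it had a Spearman's rho of −0.51 with the genotype difference over the mean of the times, against −0.17 over the 10825 genes at or above the level of the lowest member. The rho was −0.34 at 0 h (−0.19 over those genes), and with the slope it was −0.13 in wild-type libraries and −0.38 in the others (−0.18 and −0.15). This is a description over genes that share libraries, and length did not order every gene. Exosc5, near the middle in length with 6268 bases, differed by 0.87 over the mean. Counting was without regard to strand, and 17 of the 43 genes share exon bases with another gene, 4 of them over more than 10% of their length: Edc3 (22.1%), Exosc4 (19.8%), Exosc2 (12.4%) and Exosc9 (10.8%). Reads of these genes and of their neighbours cannot be told apart there.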

How the data were processed

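Each deposited file holds counts, whole fragment counts per gene, which the authors made with featureCounts 1.6.3 over exons, unstranded, per the file headers. STAR, DESeq2 and GRCm39 are named, with no role, per the submitters' processing notes. Exonic length, also in the files, served for levels per kilobase. The 55506 entries of a file comprise 55414 genes and 92 ERCC spike-ins. Symbols were matched by Ensembl identifier for 52081 genes (94%). Total counts ranged from 9142413 to 17274128 per library. Amplified reads carried no stated molecular identifiers, so they are not independent molecules and errors cover the spread between files only.

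Groups were taken from the labels. Genes kept by filterByExpr (25081) were fitted with edgeR 4.0.16 in R 4.3.3, by the quasi-likelihood F test with a mean for each of the 8 groups, and p-values were adjusted by Benjamini-Hochberg over all genes with a threshold of 0.05. Genotypes were compared with TMM factors, so these differences are relative to other genes. Slopes, in log2 per hour, are linear contrasts of the group means at 0, 1, 3 and 5 h after scaling to ERCC counts, and a half-life is the inverse of a falling slope. SE was worked back from F as |log2| divided by its root, and SD is over 2 files. The fit was tested on simulated data. Files of a pair differed by more than Poisson noise (chi-square per degree of freedom 1.43 to 1.81), so both were kept.

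Alternatives were ERCC, RLE and long-lived-mRNA scaling, TMM without immunoglobulin genes, DESeq2 1.42.0, no filter, a replicate block, summed files (8 libraries) and leaving out each library. The summed fit was made for 0 h, the slopes and the averaged times. For 0 h and the slopes it used a straight line over time in each genotype. For the averaged times it used a genotype effect and a mean for each time. Full statistics went to at most 3 genes of each module in a comparison, those with the largest differences past the threshold and alike in both files, plus the paralogue pairs. The members and lists were chosen with earlier results of these data known. Promoters came from RefSeq (GRCm38.p6). Protein sequences were not used here.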

Additional observations from a re-analysis of the deposited data

Results flagged for a closer look

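In 14 of the genes that the naming rule picks for this comparison, the slope on the ERCC scale differed between genotypes by an interaction term (edgeR, Benjamini-Hochberg adjustment). The fall was steeper in the libraries labelled Nat10-deficient for Cnot11 (−0.48 log2 per hour), Cnot4 (−0.32), Exosc1 (−0.29), Dcp1b (−0.18), Dcp2 (−0.16), Xrn1 (−0.14), Cnot10 (−0.14), Cnot6l (−0.12), Smg1 (−0.10), Smg5 (−0.10), Exosc4 (−0.09), Dis3 (−0.08) and Cnot8 (−0.07). It was less steep for Upf2 (0.16). Relative to other genes by TMM, the difference was 0.00 for Smg1, Smg5 and Exosc4, 0.01 for Dis3 and 0.03 for Cnot8, and that of Dcp2 (−0.07), Xrn1 (−0.05) and Cnot6l (−0.03) did not pass. Leaving out 1 wild-type library at 5 h ended the call for Dcp2 (−0.09) and Exosc4 (−0.08) without replicate 1, and for Cnot8 (−0.04) and Smg1 (−0.07) without replicate 2. Of all 43 genes, 21 were steeper and 8 less steep on the ERCC scale, the latter also including Lsm2 and Edc3 (0.14), Lsm4 (0.12) and Parn (0.10). The shares of genes at or above the level of the lowest member were 48.3% and 24.8%, so the members' count is not above that background. With TMM 5 were steeper and 20 less steep.

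In 11 genes the genotype difference on TMM-scaled counts had opposite signs at different times, in every file, and this change of sign was not tested as a difference. The share of all genes that change sign in this way was not counted, so the count has no background beside it. Cnot4 measured 0.74 at 1 h and −1.29 at 3 h, and Cnot11 1.25 and −1.41 at the same times. Cnot6 measured 1.04 at 5 h and −0.42 at 3 h, Cnot7 0.79 and −0.37, and Pan3 0.30 and −0.74. Pan2 measured 0.34 at 1 h and −0.53 at 0 h, and Parn 0.84 at 5 h and −0.35 at 0 h. Ddx6 measured 1.14 at 5 h and −0.26 at 1 h, and Upf2 0.82 and −0.81. Exosc1 measured 0.73 at 3 h and −0.61 at 5 h, and Smg6 0.22 at 3 h and −0.44 at 1 h. On long-lived mRNAs 4 of these changes of sign were no longer there, since Pan2 at 1 h (−0.18), Pan3 at 5 h (−0.09), Exosc1 at 3 h (−0.05) and Smg6 at 3 h (−0.56) were negative. Smg6 at 3 h was also negative with DESeq2 (−0.03).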

How the results depend on the processing

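Scaling decided the direction of several counts. With long-lived mRNAs, 25 members were called at 0 h (8 higher, 17 lower), 31 at 3 h (7 and 24), 32 for the mean of the times (12 and 20) and 24 for the slope difference (18 and 6). These counts have no share of all genes beside them. The slope difference also turned with TMM (25 called), TMM without immunoglobulin genes (25) and RLE (25), and the slope in libraries labelled Nat10-deficient turned with RLE (35 called, 21 rising). Summing both files of a group also changed the model and its error. That edgeR fit called 0 at 0 h, 0 for the mean and 0 for the slope difference (4, 16 and 0 at an unadjusted p below 0.05). Of all genes it called 0, 0.0678 and 0.279% there. For the ERCC slopes it called 31 members in wild-type libraries and 40 in those labelled Nat10-deficient, where 27.5% and 35.4% of all genes were called. Leaving out each library gave 28 to 31 calls at 0 h, 36 to 40 at 1 h, 31 to 35 at 3 h, 33 to 35 at 5 h, 37 to 39 for the mean, 42 to 43 and 43 for the slopes and 25 to 30 for the slope difference, with the lone library of a group assumed to vary like the other groups. Smg6 at 3 h was −0.03 with DESeq2, and Dcp1b at 5 h ran from −0.30 to 0.01 over the libraries left out. The replicate numbers did not pair the samples (correlations of deviations −0.0165 to 0.107 over 28 pairs of groups), and with a replicate block 31, 39, 35, 35, 39, 43, 43 and 31 members were called, in the order above. The causes were not tested.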
